A study of Homo sapiens and Mus musculus with 16 samples.

Results

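The genes described here encode the enzymes that write, copy and remove DNA methylation and the core of Polycomb repressive complex 2 (PRC2): DNMT1, UHRF1, DNMT3A, DNMT3B, TET1, TET2, TET3, EZH2, EED and SUZ12. They were chosen by name, and each matched 1 row of the human table and, in mouse spelling, 1 row of the mouse table. That made 10 of 58713 human rows and 10 of 53796 mouse rows, or 20 of 112509 rows in all.

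DNMT1 copies methylation marks onto the new DNA strand at replication, and UHRF1 recognises the hemimethylated DNA and recruits it. DNMT3A and DNMT3B place new methyl groups, and the TET enzymes oxidise 5-methylcytosine, which starts its removal. PRC2 methylates histone H3 at lysine 27, a mark of silenced genes: EZH2 is the catalytic subunit, EED binds the methylated histone tail and stimulates EZH2, and SUZ12 holds the complex together. In tumour cells both systems keep developmental and germline genes silent, and the copying machinery is usually most abundant in dividing cells.

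The data were RNA-seq profiles of 16 libraries from a human and a mouse tumour cell line: MDA-MB-231, which derives from a triple-negative breast cancer, and CT26, which derives from a colon carcinoma. Each line had 4 PD-L1 KO libraries and 4 PD-L1 WT libraries, and the KO was made with CRISPR delivered by lentivirus. No further treatment is given for any group, and the labels give no guide sequence, no pool or clone status and no statement that the 4 libraries of a group were separate cultures. The p-values therefore measure only how much these libraries vary, and that spread may be technical. Values were FPKM, fragments per kilobase of transcript scaled to the number of mapped fragments, and the 2 lines' tables were normalised separately, so that levels were not compared between lines.

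The targeted gene fell in the CT26 KO, while its level in the MDA-MB-231 KO missed the threshold. Cd274, which encodes PD-L1, averaged 0.526 ± 0.0552 FPKM in CT26 KO and 1.41 ± 0.127 FPKM in CT26 WT (SD, n = 4 each; limma adjusted p = 1.42e-04). CD274 averaged 10.6 ± 1.91 FPKM in MDA-MB-231 KO and 12.2 ± 0.670 FPKM in MDA-MB-231 WT (SD, n = 4 each; limma adjusted p = 0.166, and 0.00590 to 0.382 over the alternative settings). A CRISPR indel need not lower the transcript, so this level does not by itself check the KO label. In MDA-MB-231, VIM averaged 2545 FPKM in KO and 1113 FPKM in WT, CD44 averaged 321 FPKM in KO and 1093 FPKM in WT, and the hormone receptor genes ESR1 and PGR were near 0. These are means of 4 libraries each. Of the markers listed as low in this line, ERBB2 was not near 0, at 17.8 FPKM in KO and 24.6 FPKM in WT, and CDH1 averaged 0.311 FPKM in KO and 4.15 FPKM in WT. The epithelial marker EPCAM averaged 11.98 FPKM in KO and 27.6 FPKM in WT. The T cell marker CD3E was listed at 0 in all 8 libraries, and the leukocyte marker PTPRC was listed at 0 in KO and averaged 0.269 ± 0.324 FPKM in WT (SD, n = 4). In CT26, Vim was abundant and Krt18 averaged 31.6 FPKM in KO and 33.7 FPKM in WT, but Epcam was listed at 0 in all 8 libraries and Krt8, Cdh1 and Vil1 were near 0. Of the other colon markers, Krt20 averaged 10.4 FPKM in KO and 1.78 FPKM in WT (log2 fold change 2.03, limma adjusted p = 1.73e-07), Cdx2 averaged 0.930 FPKM in KO and 0.042 FPKM in WT, and Lgals4 averaged 1.21 FPKM in KO and 0.577 FPKM in WT. Cd3e was listed at 0 in all 8 CT26 libraries, and Ptprc averaged 0.0044 FPKM in KO and was listed at 0 in WT. Relative to WT replicate 1 of the same line, depth was 0.509 to 0.779 in MDA-MB-231 KO and 0.941 to 1.21 in MDA-MB-231 WT, and 0.926 to 2.49 in CT26 KO and 0.799 to 1.14 in CT26 WT. The part of depth and of these marker differences in the results was not tested.

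Of the 10 genes, 9 passed the filter on low values (at least 4 of the 8 libraries at 1 FPKM or more) in each line, and TET1 did not. In bulk RNA, a change in the number of cells of a type and a change in RNA per cell cannot be told apart. In MDA-MB-231, 7 of the 9 were higher in KO, none was lower, and 2, TET2 and EZH2, did not pass limma's test at an adjusted p below 0.05. Over all 14450 genes tested in that line 68.2% passed, 42.6% higher and 25.7% lower in KO, so 7 called of 9 lies near the background. The median log2 fold change was 0.48 for the 9 genes and 0.18 for all genes tested. In CT26, 1 of the 9 was higher, 4 were lower and 4 did not pass, where 55.8% of 11342 genes passed, 22.3% higher and 33.5% lower in KO, so 5 called of 9 lies near the background too. The median was -0.10 for the 9 genes and -0.06 for all genes tested. Fold changes are on the log2(FPKM + 1) scale, which understates those of low genes.

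The split of calls over all genes moved with the scaling. In MDA-MB-231 it was 6149 higher and 3711 lower in KO, and 4736 higher and 4851 lower after upper-quartile scaling. In CT26 it was 2534 higher and 3794 lower, and 3316 higher and 2840 lower after upper-quartile scaling. Upper-quartile scaling moved the median log2 fold change of all genes in MDA-MB-231 to -0.0092, against 0.18 as deposited, and to 0.025 in CT26, against -0.059. All 7 genes called higher in MDA-MB-231 stayed called and higher under upper-quartile scaling, with log2 fold changes of 0.23 (UHRF1) to 1.14 (DNMT3B), and under quantile normalisation.

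**Figure D1:**
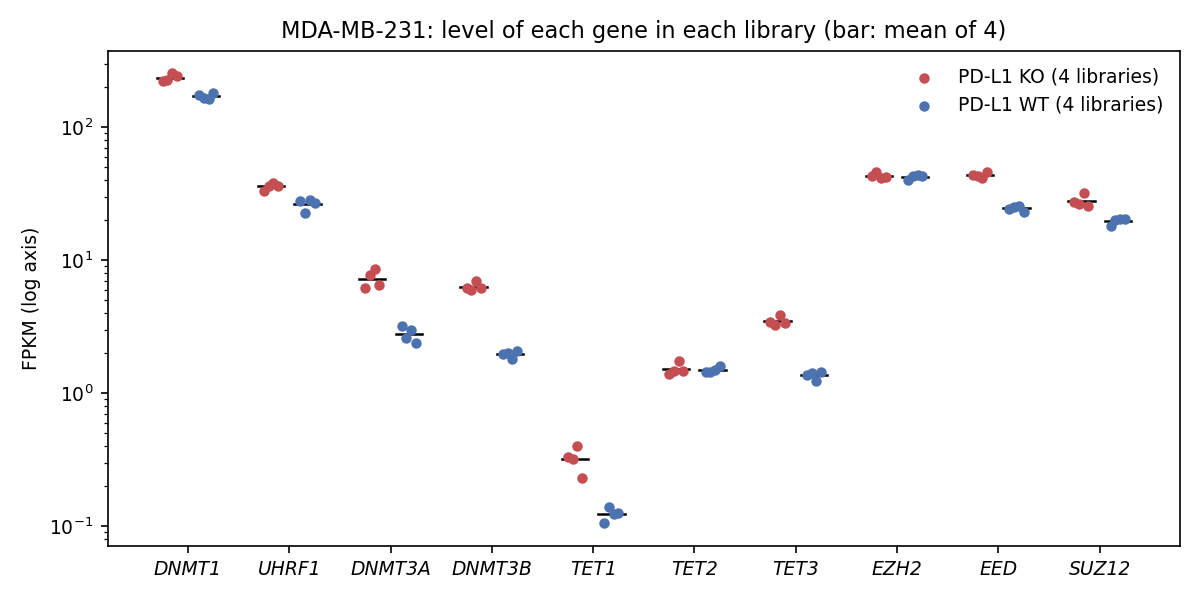
FPKM on a log axis of the 10 genes in the 8 MDA-MB-231 libraries, with 1 point per library and a bar at each group mean, PD-L1 KO left of PD-L1 WT. The KO and WT points are apart for 8 of the 10 genes and overlap for TET2 and EZH2.

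KO and WT libraries were fully apart for 8 of the 10 genes in MDA-MB-231 and for 3 of the 10 in CT26. The share of all genes tested whose groups did not overlap was 62.7% for MDA-MB-231 and 51.5% for CT26. These shares cover only genes past the filter. The counts include TET1, which was below the filter in both lines and apart only in MDA-MB-231.

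Promoters of 5 of the genes are shown because their transcripts, for proteins that act together, moved together or apart: DNMT1 and UHRF1 rose together in the MDA-MB-231 KO, and EED and SUZ12 rose while EZH2 did not pass the test. After centring on the median of the genes within 10 Mb, SUZ12 no longer passed (log2 fold change 0.086, limma adjusted p = 0.387). EZH2 was then called higher (0.29, limma adjusted p = 0.00104). The promoters were chosen after the values were seen. Each is the 250 bases before the start site in RefSeq on GRCh38.p14, 5′ to 3′ on the gene's strand, in lower case, with E2F letters (TTTGGCGC, TTTCCCGC, TTTCGCGC or TTTGCCGC) and CCAAT letters of either strand in capitals. The DNMT1 window lies at chr19:10194954-10195203 on the minus strand. The UHRF1 window lies at chr19:4909251-4909500 on the plus strand. The SUZ12 window lies at chr17:31936757-31937006 on the plus strand. The EED window lies at chr11:86244503-86244752 on the plus strand. The EZH2 window lies at chr7:148884292-148884541 on the minus strand. These RefSeq starts differ from the starts of the GENCODE 29 gene spans given below. The DNMT1 and UHRF1 windows lie wholly inside those spans, and the EED and EZH2 windows lie partly inside them.
DNMT1: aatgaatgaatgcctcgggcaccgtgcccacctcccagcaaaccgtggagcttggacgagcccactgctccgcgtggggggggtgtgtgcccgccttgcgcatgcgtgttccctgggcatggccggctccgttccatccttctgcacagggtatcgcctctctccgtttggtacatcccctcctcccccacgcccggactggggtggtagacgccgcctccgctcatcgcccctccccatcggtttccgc
UHRF1: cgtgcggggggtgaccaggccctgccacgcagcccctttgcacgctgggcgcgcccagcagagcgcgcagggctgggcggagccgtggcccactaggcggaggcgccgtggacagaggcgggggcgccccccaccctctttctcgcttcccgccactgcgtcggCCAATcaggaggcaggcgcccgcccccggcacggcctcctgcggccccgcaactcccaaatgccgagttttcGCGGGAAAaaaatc
SUZ12: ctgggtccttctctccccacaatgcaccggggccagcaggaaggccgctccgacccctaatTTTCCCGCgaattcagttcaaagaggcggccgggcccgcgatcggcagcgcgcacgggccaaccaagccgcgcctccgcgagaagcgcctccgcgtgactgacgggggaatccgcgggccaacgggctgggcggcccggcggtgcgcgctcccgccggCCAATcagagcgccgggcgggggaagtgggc
EED: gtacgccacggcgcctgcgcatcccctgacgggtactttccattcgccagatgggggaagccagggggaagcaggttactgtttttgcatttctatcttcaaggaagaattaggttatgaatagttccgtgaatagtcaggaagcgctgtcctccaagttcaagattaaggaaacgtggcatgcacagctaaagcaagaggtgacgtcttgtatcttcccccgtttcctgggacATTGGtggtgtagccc
EZH2: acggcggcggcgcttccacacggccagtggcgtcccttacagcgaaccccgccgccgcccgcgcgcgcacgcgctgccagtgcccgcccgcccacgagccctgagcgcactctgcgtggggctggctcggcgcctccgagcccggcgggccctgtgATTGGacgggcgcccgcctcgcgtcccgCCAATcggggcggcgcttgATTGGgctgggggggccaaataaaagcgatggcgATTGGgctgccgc

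The DNMT1 window held neither motif. The UHRF1 window held E2F letters whose first base lies 14 bases before the start and CCAAT letters 86 bases before it. A second UHRF1 window, not printed, held E2F letters 160 bases and CCAAT letters 125 and 82 bases before its start. The SUZ12 window held E2F letters 189 bases and CCAAT letters 31 bases before the start, and the EED window held CCAAT letters 16 bases before it. The printed EZH2 window held CCAAT letters at 94, 66, 47 and 13 bases before the start. Another EZH2 window and another UHRF1 window, not printed, held neither motif. Of 35116 human promoter windows of the same length, 2.79% held E2F letters and 32.0% held CCAAT letters. All 10 genes matched an entry, with 22 windows, of which 3 held E2F letters (in 2 genes) and 9 held CCAAT letters (in 7 genes). A match is a description of the letters, and short motifs recur often.

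The maintenance genes were higher in the MDA-MB-231 KO and in CT26 were lower (Dnmt1) or did not pass (Uhrf1). DNMT1, the maintenance methyltransferase (hg38 chr19:10133345-10231286, minus strand), had 221, 224, 254 and 241 FPKM in the MDA-MB-231 KO libraries, against 173, 164, 163 and 179 FPKM in the WT libraries. All 4 KO libraries lay above all 4 WT libraries. The mean was 1.38-fold that of WT (234.7 ± 15.3 FPKM in KO and 169.8 ± 7.77 FPKM in WT, SD, n = 4 each), and the log2 fold change was 0.46 (SE 0.056, limma adjusted p = 8.45e-05). It was 0.25 after upper-quartile scaling and 0.21 after quantile normalisation, with limma adjusted p = 0.00502 and 0.0195, over a range of 6.84e-05 to 0.0195 in all alternatives. S1PR2, a gene that overlaps DNMT1, had 0.248 to 0.425 FPKM in KO and 0.600 to 0.873 FPKM in WT, so its level was far below that of DNMT1.

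UHRF1, the reader of hemimethylated DNA (hg38 chr19:4903080-4962154, plus strand), had 33.3, 36.4, 37.7 and 36.1 FPKM in the MDA-MB-231 KO libraries, against 27.7, 22.5, 28.2 and 26.8 FPKM in the WT libraries. The groups did not overlap. Its log2 fold change was 0.44 (SE 0.080, limma adjusted p = 0.00109), with 35.9 ± 1.88 FPKM in KO and 26.3 ± 2.60 FPKM in WT (SD, n = 4 each). It was 0.23 after upper-quartile scaling, where limma's adjusted p was 0.0353, and the alternatives ran from 3.52e-04 to 0.0353. The genes whose midpoint lay within 10 Mb on either side had a median log2 fold change of -0.10 for UHRF1 (357 genes) and of -0.02 for DNMT1 (463 genes), and the part of neighbouring genes in the values given here was not tested.

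In CT26, Dnmt1 (mm10 chr9:20907209-20959888) had 40.4, 42.5, 38.6 and 35.6 FPKM in the KO libraries, against 42.4, 42.9, 43.5 and 47.3 FPKM in the WT libraries. The groups overlapped, since KO replicate 2 lay above WT replicate 1. In limma the log2 fold change was -0.16 (SE 0.060), and limma's adjusted p of 0.0468 was close to the threshold. It passed in 4 of 17 alternative settings (adjusted p 0.0231 to 0.290) and was lost when any library other than KO replicate 2 was left out (0.0569 to 0.110). The authors' deposited table gave it a q-value of 0.109. Uhrf1 (mm10 chr17:56303321-56323486) had 113, 119, 100.3 and 96.2 FPKM in the KO libraries, against 114, 108, 114 and 123 FPKM in the WT libraries. The groups overlapped, and the log2 fold change of -0.10 did not pass (95% interval -0.27 to 0.064, limma adjusted p = 0.265).

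DNMT3A and DNMT3B, the de novo methyltransferase genes, had the highest log2 fold changes of the 9 genes tested in MDA-MB-231 at the pseudocount of 1. DNMT3B (hg38 chr20:32762385-32809356, plus strand) had 6.20, 5.99, 6.94 and 6.18 FPKM in the KO libraries, against 1.97, 2.0, 1.80 and 2.08 FPKM in the WT libraries. The KO libraries were all above every WT library, and the KO mean was 3.22-fold the WT mean (6.33 ± 0.418 FPKM in KO and 1.96 ± 0.118 FPKM in WT, SD, n = 4 each). The log2 fold change was 1.31 (SE 0.083, limma adjusted p = 1.38e-06), at the 93.6th percentile of all genes tested, and 0.70 with a pseudocount of 5. The median of its 131 neighbours was 0.31.

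DNMT3A (hg38 chr2:25227855-25342590, minus strand) had 6.13, 7.76, 8.54 and 6.48 FPKM in the MDA-MB-231 KO libraries, against 3.18, 2.62, 2.99 and 2.38 FPKM in the WT libraries. KO and WT did not overlap, and the KO mean was 2.59-fold the WT mean (7.23 ± 1.12 FPKM in KO and 2.79 ± 0.364 FPKM in WT, SD, n = 4 each). Its log2 fold change was 1.11 (SE 0.12, limma adjusted p = 4.58e-05), and 0.65 with a pseudocount of 5. The median of its 100 neighbours was 0.26.

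In CT26, Dnmt3a (mm10 chr12:3806007-3914443) had 9.90, 9.78, 11.97 and 8.50 FPKM in the KO libraries, against 7.45, 8.92, 6.35 and 8.45 FPKM in the WT libraries. The groups overlapped. In limma the log2 fold change was 0.33 (SE 0.12, limma adjusted p = 0.0452), the only call in the higher direction among the CT26 genes. It passed in 8 of 17 alternatives (adjusted p 0.0160 to 0.402), and was lost without KO replicate 1, 2 or 3 and without WT replicate 1, 3 or 4. The 31 neighbours had a median of 0.46, above the gene itself, and centring on the neighbours gave -0.13 (limma adjusted p = 0.402). The authors' deposited table gave a q-value of 0.139. Dnmt3b (mm10 chr2:153648690-153687730) was low, at 1.10 to 1.37 FPKM in KO and 1.26 to 1.51 FPKM in WT. Its log2 fold change of -0.047 did not pass (95% interval -0.22 to 0.13, limma adjusted p = 0.626).

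**Figure D2:**
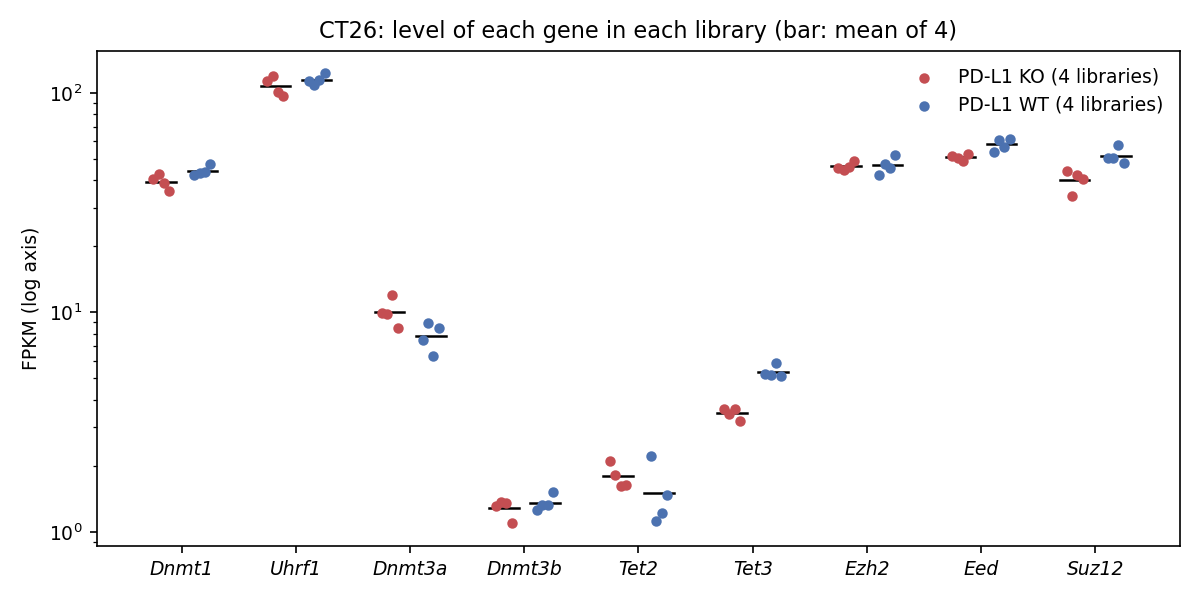
FPKM on a log axis of 9 of the genes in the 8 CT26 libraries, with 1 point per library and a bar at each group mean, PD-L1 KO left of PD-L1 WT. Tet1 is left out because it was listed at 0 in 4 libraries. The Tet3, Eed and Suz12 points of KO lie below those of WT without overlap.

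Of the TET genes, TET3 passed the test in both lines, in opposite directions, and TET2 passed in neither. TET3 (hg38 chr2:73986404-74108176, plus strand), an oxidase of 5-methylcytosine, had 3.41, 3.26, 3.84 and 3.39 FPKM in the MDA-MB-231 KO libraries, against 1.37, 1.41, 1.24 and 1.45 FPKM in the WT libraries. The groups did not overlap, and the KO mean was 2.54-fold the WT mean (3.47 ± 0.252 FPKM in KO and 1.37 ± 0.0941 FPKM in WT, SD, n = 4 each). The log2 fold change was 0.92 (SE 0.086, limma adjusted p = 1.63e-05), 0.41 with a pseudocount of 5 and 0.46 after centring on its 100 neighbours, whose median was 0.46. TET2 (hg38 chr4:105145875-105279816, plus strand) had 1.40, 1.47, 1.74 and 1.48 FPKM in the KO libraries, against 1.43, 1.45, 1.51 and 1.60 FPKM in the WT libraries. The groups overlapped, and its log2 fold change of 0.014 did not pass (95% interval -0.19 to 0.21, limma adjusted p = 0.898).

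TET1 (hg38 chr10:68560656-68694482, plus strand) lay below the filter, with 0.331, 0.319, 0.399 and 0.231 FPKM in the MDA-MB-231 KO libraries, against 0.106, 0.141, 0.125 and 0.125 FPKM in the WT libraries. Every KO library lay above every WT library at this low level, and the exact permutation p, two-sided, was 0.0286, the smallest that the 70 assignments of the 8 libraries allow. Without the filter limma gave a log2 fold change of 0.23 (SE 0.047, adjusted p = 0.00545). In CT26 Tet1 (mm10 chr10:62804570-62908996) was listed at 0.0327, 0.00345, 0.0577 and 0 FPKM in the KO libraries, against 0.00768, 0, 0 and 0 FPKM in the WT libraries, and no fold is given.

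In CT26, Tet3 (mm10 chr6:83362373-83459084) had 3.65, 3.45, 3.62 and 3.19 FPKM in the KO libraries, against 5.24, 5.20, 5.86 and 5.11 FPKM in the WT libraries. KO and WT did not overlap, and the KO mean was 65.0% of the WT mean (3.48 ± 0.209 FPKM in KO and 5.35 ± 0.343 FPKM in WT, SD, n = 4 each). Its log2 fold change was -0.50 (SE 0.063, limma adjusted p = 2.23e-04), -0.29 with a pseudocount of 5, and it passed in 17 of 17 alternatives. The median of its 104 neighbours was -0.11. Tet2 (mm10 chr3:133463679-133585053) had 2.10, 1.81, 1.62 and 1.63 FPKM in the KO libraries, against 2.22, 1.12, 1.22 and 1.47 FPKM in the WT libraries. The groups overlapped, with WT replicate 1 the highest of the 8 and the other WT libraries below all KO libraries. The log2 fold change of 0.17 did not pass (95% interval -0.15 to 0.48, limma adjusted p = 0.331), and it was 0.29 without WT replicate 1 (adjusted p = 0.0399, over a range of 0.0399 to 0.601).

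Of the PRC2 core, EED and SUZ12 rose in the MDA-MB-231 KO and fell in the CT26 KO, and EZH2 did not pass in either line. EED (hg38 chr11:86244544-86278813, plus strand) had 43.6, 42.8, 41.4 and 46.3 FPKM in the MDA-MB-231 KO libraries, against 24.1, 25.1, 25.7 and 23.2 FPKM in the WT libraries. The groups were far apart, and the KO mean was 1.77-fold the WT mean (43.5 ± 2.08 FPKM in KO and 24.5 ± 1.11 FPKM in WT, SD, n = 4 each). In limma the log2 fold change was 0.80 (SE 0.056, limma adjusted p = 2.60e-06), against a median of 0.19 over its 74 neighbours.

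SUZ12 (hg38 chr17:31937018-32001045, plus strand) had 27.5, 26.4, 32.2 and 25.6 FPKM in the MDA-MB-231 KO libraries, against 18.1, 19.98, 20.4 and 20.3 FPKM in the WT libraries. All KO libraries lay above all WT libraries. The log2 fold change was 0.48 (SE 0.082, limma adjusted p = 7.16e-04), and its 179 neighbours had a median of 0.39. After centring on those neighbours it was 0.086 and no longer passed (adjusted p = 0.387, over a range of 6.27e-04 to 0.387). After upper-quartile scaling it was 0.27.

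EZH2 (hg38 chr7:148807383-148884321, minus strand) had 43.0, 45.6, 41.3 and 42.1 FPKM in the MDA-MB-231 KO libraries, against 39.9, 42.7, 43.5 and 43.1 FPKM in the WT libraries. The groups overlapped, and the log2 fold change of 0.023 did not pass (95% interval -0.10 to 0.14, limma adjusted p = 0.717). Its direction depended on the scaling: it was -0.19 after upper-quartile scaling, -0.20 after quantile normalisation and 0.29 after centring on its 116 neighbours, each past the threshold (limma adjusted p = 0.00435, 0.00303 and 0.00104, over a range of 0.00104 to 0.945). The neighbours' median was -0.26.

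In CT26, Eed (mm10 chr7:89954654-90049069) had 51.4, 50.3, 49.0 and 52.7 FPKM in the KO libraries, against 53.8, 60.9, 56.4 and 61.5 FPKM in the WT libraries. Every KO library lay below every WT library. Its log2 fold change was -0.19 (SE 0.049, limma adjusted p = 0.0112), and it missed the threshold after upper-quartile scaling (0.0897) and quantile normalisation (0.0710), over a range of 0.00448 to 0.0897. Suz12 (mm10 chr11:79993106-80034123) had 44.2, 33.9, 42.2 and 40.4 FPKM in the KO libraries, against 50.7, 50.3, 57.9 and 47.8 FPKM in the WT libraries. The groups did not overlap. In limma the log2 fold change was -0.36 (SE 0.089, limma adjusted p = 0.00884), and -0.22 after centring on its 204 neighbours (adjusted p = 0.0755, over a range of 0.00793 to 0.0755). Ezh2 (mm10 chr6:47530139-47595341) had 45.5, 44.3, 46.0 and 49.1 FPKM in the KO libraries, against 42.4, 47.6, 45.4 and 52.3 FPKM in the WT libraries. It overlapped, and its log2 fold change of -0.018 did not pass (95% interval -0.17 to 0.13, limma adjusted p = 0.828).

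The authors' deposited table of MDA-MB-231 gave a q-value of 1.50e-04 for EED, DNMT3B, DNMT3A, SUZ12, TET3 and UHRF1, 0.00155 for DNMT1, 0.820 for EZH2 and 0.920 for TET2. For CT26 the authors' deposited table gave 2.14e-04 for Tet3, 0.0260 for Suz12 and 0.0381 for Eed. The authors' deposited tables left TET1 untested for both lines.

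The responses differed between the lines in 7 of the 9 genes tested in both, all with the higher value in MDA-MB-231. The fit over the 8667 genes paired by symbol tested the MDA-MB-231 log2 fold change minus the CT26 log2 fold change, and 72.2% of genes passed, 50.1% with a positive and 22.0% with a negative difference, so 7 called of 9 again lies near the background. The split was 4345 positive and 1911 negative, and 3029 and 2936 after upper-quartile scaling. The median difference was 0.78 for the 9 genes and 0.30 for all paired genes. TET3 differed by 1.42 (SE 0.10, limma adjusted p = 2.20e-09) and DNMT3B by 1.35 (SE 0.11, limma adjusted p = 5.34e-09). The sizes depended on the pseudocount. With pseudocounts of 5 and 0.1 the TET3 difference was 0.70 and 1.89, and that of DNMT3B 0.72 and 1.72, all past the threshold. EED differed by 0.99 (SE 0.077) and SUZ12 by 0.84 (SE 0.12), with limma adjusted p of 4.78e-09 and 1.04e-05. After centring on neighbours the SUZ12 difference was 0.31 (limma adjusted p = 0.0373). DNMT3A differed by 0.78 (SE 0.17) and DNMT1 by 0.63 (SE 0.084), with limma adjusted p of 6.17e-04 and 3.90e-06. UHRF1 differed by 0.54 (SE 0.11, limma adjusted p = 2.67e-04), a call lost after upper-quartile scaling (0.24, adjusted p = 0.0572, over a range of 1.34e-04 to 0.0572). The other two, EZH2 and TET2, differed by 0.04 (95% interval -0.14 to 0.22) and -0.15 (95% interval -0.49 to 0.18), with limma adjusted p of 0.681 and 0.392. The EZH2 difference was -0.26 after upper-quartile scaling and -0.27 after quantile normalisation, with adjusted p of 0.00540 and 0.00490, and 0.24 after centring on neighbours (adjusted p = 0.0185). The lines differ in species and tissue of origin, so line, species and origin cannot be told apart.

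**Figure D3:**
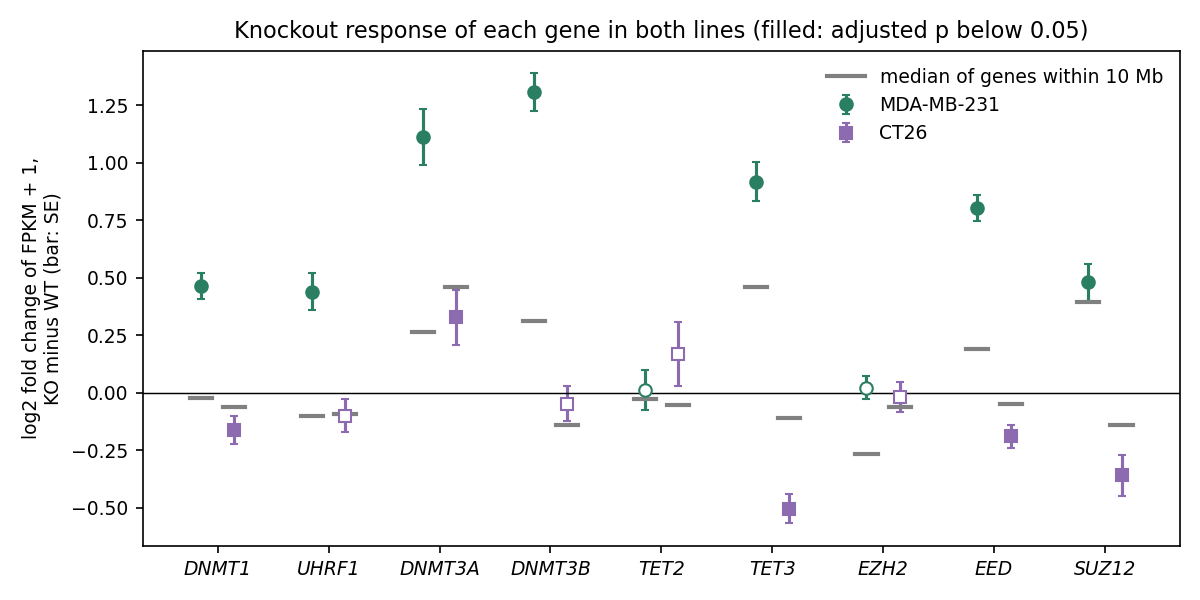
Log2 fold change of FPKM + 1, KO minus WT, with its SE for the 9 genes tested in both lines, MDA-MB-231 left of CT26, filled where limma's adjusted p was below 0.05, with grey bars at the median of the genes within 10 Mb. The MDA-MB-231 values of 7 genes lie above 0.4, and the lowest CT26 value is that of Tet3 at -0.50.

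Ratios within a library do not depend on how the libraries were scaled to each other. These 6 ratios were chosen after the values were seen and carry no test. FPKM is per length of the transcript, so the ratio compares levels of 2 genes per length. EED over EZH2 averaged 1.01 ± 0.0670 in MDA-MB-231 KO, with a range of 0.938 to 1.10, and 0.579 ± 0.0293 in WT, with a range of 0.537 to 0.604 (SD, n = 4 each). KO and WT did not overlap, and nor did they for SUZ12 over EZH2, at 0.651 ± 0.0884 in KO and 0.465 ± 0.00830 in WT. In CT26 EED over EZH2 averaged 1.10 ± 0.0370 in KO and 1.24 ± 0.0462 in WT, without overlap, and SUZ12 over EZH2 averaged 0.869 ± 0.0938 in KO and 1.11 ± 0.159 in WT, with overlap. So EED and SUZ12 were higher relative to EZH2 in MDA-MB-231 KO, and in CT26 KO they were lower on average.

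UHRF1 over DNMT1 averaged 0.153 ± 0.00638 in MDA-MB-231 KO and 0.155 ± 0.0154 in WT, and 2.72 ± 0.0977 in CT26 KO and 2.60 ± 0.0695 in CT26 WT, with overlap in both lines. DNMT3A over DNMT1 averaged 0.0308 ± 0.00399 in MDA-MB-231 KO and 0.0165 ± 0.00246 in WT, and 0.256 ± 0.0364 in CT26 KO and 0.177 ± 0.0252 in CT26 WT. The groups did not overlap in either line, so this ratio was higher in KO in both. TET3 over TET2 averaged 2.29 ± 0.106 in MDA-MB-231 KO and 0.915 ± 0.0687 in WT, and 1.96 ± 0.207 in CT26 KO and 3.81 ± 1.13 in CT26 WT. KO and WT did not overlap in either line, and the directions were opposite. DNMT3B over DNMT3A averaged 0.887 ± 0.114 in MDA-MB-231 KO and 0.714 ± 0.129 in WT, with overlap, and 0.129 ± 0.0115 in CT26 KO and 0.176 ± 0.0253 in CT26 WT, without overlap.

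**Figure D4:**
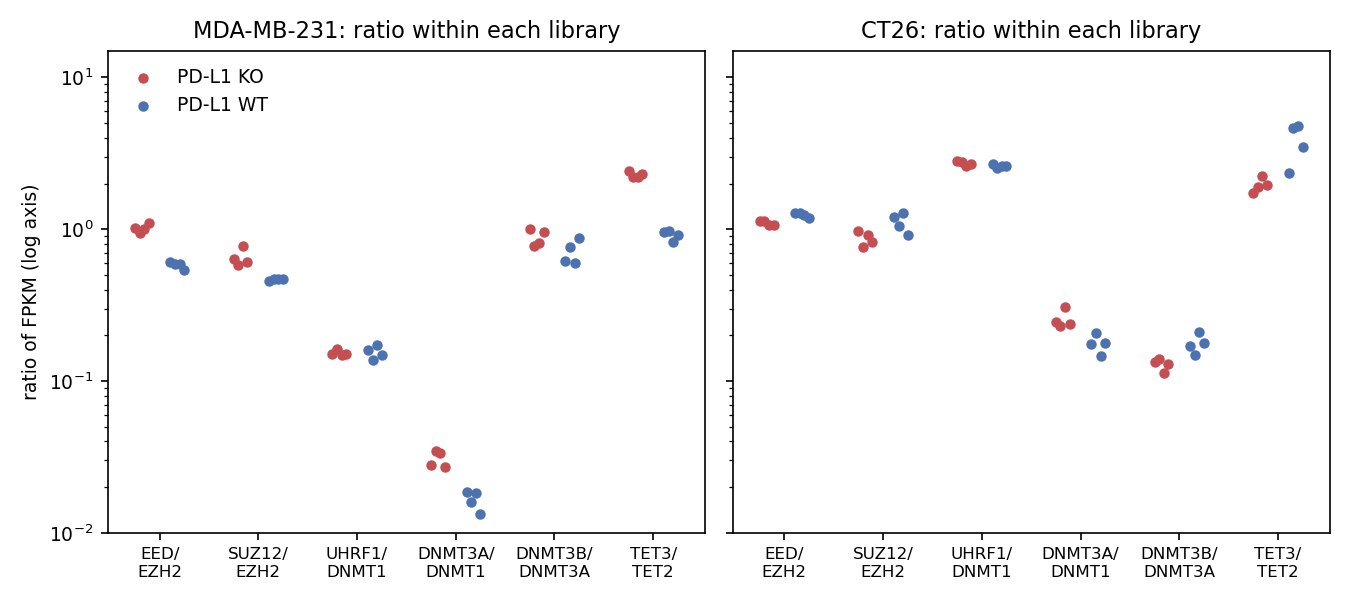
Ratios of FPKM within each library on a log axis, MDA-MB-231 left and CT26 right, with 1 point per library and PD-L1 KO left of PD-L1 WT. EED over EZH2 and TET3 over TET2 are higher in KO in MDA-MB-231 and lower in KO in CT26.

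Genes that work with these enzymes were counted from lists that were drawn up knowing earlier results of these data, so no test of a list was made. Each count is read against the share of all genes tested that passed, 68.2% in MDA-MB-231 (42.6% higher, 25.7% lower) and 55.8% in CT26 (22.3% higher, 33.5% lower). DNA methylation partners, among them a chromatin remodeller, a glycosylase and histone methyltransferases, were all higher in MDA-MB-231 KO, 10 of 10 tested, with a median log2 fold change of 0.82, against 0.18 for all genes. After upper-quartile scaling 6 of the 10 passed, all higher. CDCA7, which recruits the remodeller HELLS, averaged 41.4 ± 0.748 FPKM in KO and 12.6 ± 0.449 FPKM in WT (log2 fold change 1.64), and HELLS 40.04 ± 3.27 FPKM in KO and 20.2 ± 1.05 FPKM in WT (0.95). TDG, the glycosylase that removes oxidised methylcytosine, averaged 25.6 ± 3.25 FPKM in KO and 12.3 ± 0.940 FPKM in WT (0.99), and ZBTB24, which activates CDCA7, 4.28 ± 0.373 FPKM in KO and 1.41 ± 0.188 FPKM in WT (1.13), SD with n = 4 each. After centring on neighbours 7 of the 10 passed, all higher. HELLS was then 0.50, TDG 0.48 and ZBTB24 0.55, each still past the threshold. In CT26, 3 of 9 were higher, 2 lower and 4 did not pass, near the 55.8% over all genes, with a median of -0.01. Hells averaged 42.6 ± 3.36 FPKM in KO and 66.7 ± 3.15 FPKM in WT (log2 fold change -0.64), a call lost after centring on neighbours (limma adjusted p = 0.0622). Cdca7 (0.13) and Trdmt1 (0.49) were called higher in CT26 KO and stayed so after centring (0.16 and 0.57). CDCA7 was thus called higher in both lines. After centring 3 of the 9 were higher in CT26 KO and none lower.

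The list of methyl-CpG readers holds MBD family and zinc finger genes, whether or not each protein binds methylated DNA. Of its genes, 3 of 10 were higher and 3 lower in MDA-MB-231 KO and 4 did not pass. After upper-quartile scaling 2 were higher and 4 lower. In both lines the share called lay near the background. MBD2 averaged 243 ± 15.3 FPKM in KO and 108 ± 13.3 FPKM in WT (log2 fold change 1.16, and 0.53 after centring on neighbours), and ZBTB38 17.2 ± 4.83 FPKM in KO and 77.5 ± 5.91 FPKM in WT (-2.15), SD with n = 4 each. ZBTB4 averaged 5.22 ± 0.408 FPKM in KO and 18.95 ± 0.809 FPKM in WT (-1.68). In CT26, 5 of 10 were lower in KO and none higher, with a median of -0.34. Mbd2 averaged 70.9 ± 3.74 FPKM in KO and 116 ± 6.43 FPKM in WT (-0.70, and -0.19 after centring on neighbours). PRC2 partners were EZH1, RBBP4, RBBP7 and accessory subunits. They had 1 higher and 2 lower of 8 in MDA-MB-231, and 1 higher and 5 lower after upper-quartile scaling. The share called was below the 68.2% over all genes in the first case and near it in the second. PHF1 averaged 32.9 ± 2.82 FPKM in KO and 79.4 ± 2.35 FPKM in WT (-1.25, and -0.78 after centring on neighbours), JARID2 8.53 ± 0.347 FPKM in KO and 12.1 ± 0.429 FPKM in WT (-0.46), and AEBP2 21.6 ± 1.29 FPKM in KO and 11.03 ± 1.02 FPKM in WT (0.91, and 0.56 after centring). In CT26, 1 was higher and 3 lower of 8, near the 55.8% over all genes, with Rbbp7 at 223 ± 3.68 FPKM in KO and 285 ± 10.8 FPKM in WT (-0.35).

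PRC1 is the complex that ubiquitinates histone H2A. Of its 23 tested subunits, 13 were higher and 1 lower in MDA-MB-231 KO, with a median of 0.47, and 11 and 4 after upper-quartile scaling. The share called was near the 68.2% over all genes, and in CT26 it was near the 55.8% there. PHC1 averaged 23.97 ± 0.694 FPKM in KO and 2.96 ± 0.193 FPKM in WT (log2 fold change 2.66), and CBX2 7.07 ± 0.952 FPKM in KO and 2.33 ± 0.114 FPKM in WT (1.27), SD with n = 4 each. In CT26, 2 of 22 were higher and 10 lower, with a median of -0.17, and 2 higher and 5 lower after centring on neighbours. Pcgf5 averaged 38.8 ± 1.78 FPKM in KO and 82.8 ± 4.79 FPKM in WT (-1.07, and -0.61 after centring). Polycomb opponents, the demethylases and activating complexes, had 7 higher and 2 lower of 14 in MDA-MB-231, and 3 and 3 after upper-quartile scaling, with a share called near 68.2% in the first case and below it in the second. In CT26, 2 of 14 were higher and 2 lower, and 10 did not pass, below the 55.8% over all genes, while upper-quartile scaling gave 5 higher and 2 lower. KDM6A, an H3K27 demethylase, was lower in both lines, with 7.13 ± 1.21 FPKM in KO and 16.8 ± 2.37 FPKM in WT in MDA-MB-231 (-1.13, and -0.55 after centring), and 4.23 ± 0.263 FPKM in KO and 7.97 ± 0.548 FPKM in WT in CT26 (-0.78), where the call was lost after centring on neighbours (limma adjusted p = 0.675).

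S phase genes, which mark DNA replication, had 13 higher and 1 lower of 20 in MDA-MB-231 KO, or 11 and 4 after upper-quartile scaling, near the 68.2% called over all genes. Their summed level was 2615 to 2662 FPKM in KO and 1817 to 1908 FPKM in WT. PCNA averaged 277 ± 7.82 FPKM in KO and 162 ± 4.53 FPKM in WT (log2 fold change 0.77, and 0.37 after centring on neighbours), SD with n = 4 each. In CT26, 4 were higher and 8 lower of 18, above the 55.8% called over all genes, and the sum was 1231 to 1323 FPKM in KO and 1326 to 1416 FPKM in WT, while Cdt1 and Gins2 were failed estimates listed at 0. Single CT26 genes went both ways, with Rrm2 higher (0.67) and Mcm6 lower (-0.72). The S phase sums therefore moved in the same direction as DNMT1 in each line. The FPKM sum over all genes was also higher in MDA-MB-231 KO, at 847947 to 927574 against 750840 to 787989 in WT. In CT26 it was 763174 to 783043 in KO and 782464 to 830171 in WT, with a slight overlap. The part of either sum in the DNMT1 and UHRF1 results was not tested.

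Of the genes that these systems silence, germline genes were low. In MDA-MB-231 none of the 10 passed the filter, and their summed level was 0.139 to 0.595 FPKM in KO and 1.43 to 1.88 FPKM in WT. In CT26 the only one tested was Brdt, at 2.11 ± 0.0997 FPKM in KO and 1.46 ± 0.177 FPKM in WT (SD, n = 4 each; log2 fold change 0.34, limma adjusted p = 0.00512). Among Polycomb target genes, 3 were tested in MDA-MB-231. GATA6, a developmental regulator, averaged 1.44 ± 0.225 FPKM in KO and 13.5 ± 0.388 FPKM in WT (-2.58), WT1 was listed at 0 in all 4 KO libraries and averaged 5.38 ± 0.702 FPKM in WT, and DKK1, a Wnt inhibitor, averaged 349 ± 20.7 FPKM in KO and 229.8 ± 17.2 FPKM in WT (0.60). The DKK1 value was 0.39 after upper-quartile scaling and 0.36 after quantile normalisation, and its call was lost after centring on neighbours (limma adjusted p = 0.967). In CT26, 3 were tested, and the lowest limma adjusted p was 0.1001, for Gata4, a developmental regulator, at 7.63 ± 1.38 FPKM in KO and 6.23 ± 0.455 FPKM in WT (0.24). Gata4 passed after upper-quartile scaling (log2 fold change 0.32, limma adjusted p = 0.0419), and 1 of the 3 passed with the replicate block and 1 without CT26 KO replicate 4.

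**Figure D5:**
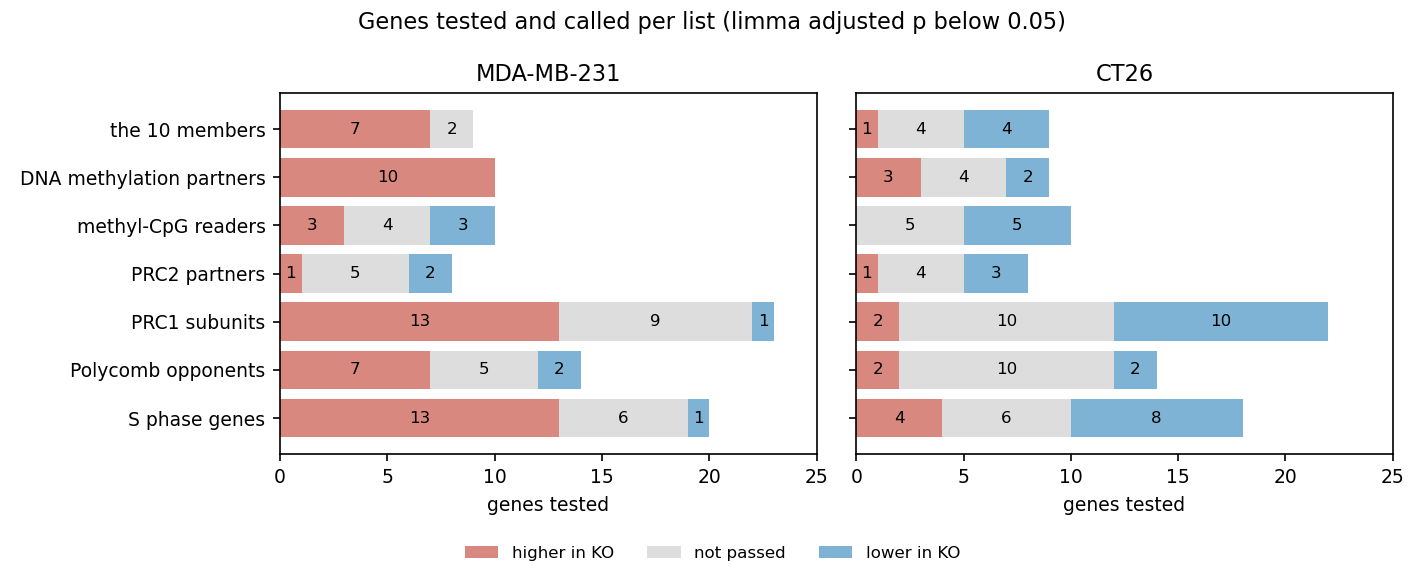
Numbers of genes tested in each list that were higher in KO, did not pass, or were lower in KO, in MDA-MB-231 left and CT26 right (limma adjusted p below 0.05). In MDA-MB-231 the DNA methylation partners are all higher, and in CT26 the methyl-CpG readers have 5 lower and none higher.

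For the gene with the largest moderated test value in each line, the 5 genes most like it over the 8 libraries of that line were found by Pearson r on log2(FPKM + 1), as a description. For DNMT3B in MDA-MB-231 they were GOPC, AC073130.1, TSPYL1, APEH and KIF5B, each with r = 0.998. For Tet3 in CT26 they were Scd2 (r = 0.994), Ddx17 (0.993), Uba6 (0.992), Mob1b (0.992) and Btaf1 (0.991). The 8 libraries fall into the KO and WT groups, which these values share, and nothing is said of shared function.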

How the data were processed

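RNA was sequenced from 16 libraries. Per the submitters' processing notes, bcl2fastq 2.18, STAR 2.5.4a, Cufflinks 2.2.1 and Cuffdiff were used with builds hg38 and mm10. The sources used here do not give the annotation release, the use of strand or how Cuffdiff was set. The authors deposited 1 table per line with an FPKM value for each gene and library. The authors' own test statistic (a score), p-value and q-value were deposited beside these, and only the q-values are quoted. Each table was normalised on its own. Genes that the authors' status column marked as having too much data (13 in MDA-MB-231, 210 in CT26) were listed at 0 and left out.

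Values were analysed as log2(FPKM + 1). A gene was tested where at least 4 of a line's 8 libraries reached 1 FPKM, which left 14450 genes for MDA-MB-231 and 11342 for CT26. KO was compared with WT in limma 3.58.1 (R 4.3.3), with two-sided tests and a mean-variance trend, and p-values were adjusted by Benjamini-Hochberg across the genes tested, with calls at 0.05. The difference between lines was a contrast over 8667 genes paired by symbol. Neighbours were genes whose midpoint lay within 10 Mb. Depth was estimated from ratios of values below 0.3 FPKM, relative to WT replicate 1. Alternatives were pseudocounts of 0.1 and 5, no filter and a stricter one, other scalings, centring on neighbours, a replicate block and each library left out. The fits were tested on simulated data. The named genes were the 10 genes, up to 4 per list with the smallest adjusted p, the 5 most like genes and the targeted gene, and not all of these list members are described. The genes and lists were chosen with earlier results of these data known. Human gene coordinates are those of GENCODE 29. Mouse coordinates are the locus listed in the authors' deposited table, which need not be the span of the gene alone. Promoters came from RefSeq (GRCh38.p14), and only human ones were used. Marker genes that the text does not name are not reported here.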

Additional observations from a re-analysis of the deposited data

Results flagged for a closer look

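In 1 of 40 groups of 4 libraries looked at, a single library stood apart from the other 3: Tet1 in CT26 WT, with 0.00768 FPKM in replicate 1 and 0 in the other 3. Chance alone flags about 1 in 20 groups, and a value this low has little depth behind it.

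Of the 9 genes tested in both lines, the responses of 7 differed by limma's contrast of MDA-MB-231 minus CT26. Over all 8667 paired genes 72.2% passed, 50.1% with a positive and 22.0% with a negative difference. The 7 called of 9 thus lie near the background. The differences in log2 fold change were 0.63 for DNMT1, 0.78 for DNMT3A, 1.35 for DNMT3B, 0.54 for UHRF1, 0.99 for EED, 0.84 for SUZ12 and 1.42 for TET3. The UHRF1 call was lost after upper-quartile scaling (0.24, limma adjusted p = 0.0572). In the main setting DNMT1, TET3, EED and SUZ12 were called higher in MDA-MB-231 and lower in CT26, whereas DNMT3A was called higher in both lines. In CT26, Dnmt1 passed in 4 of 17 alternatives, Dnmt3a in 8 of 17 and Eed in 15 of 17. SUZ12 lost its call in both lines after centring on neighbours (limma adjusted p = 0.387 in MDA-MB-231 and 0.0755 in CT26).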

How the results depend on the processing

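All 7 calls in MDA-MB-231 held in each alternative that gave a value for the gene, except SUZ12 after centring on neighbours. In CT26 the number of the 9 genes called was 5 and became 3 with no filter, 3 after upper-quartile scaling, 3 after quantile normalisation, 3 with the replicate block and 2 after centring on neighbours, and leaving out a library gave 3 to 4, with 3 without KO replicate 1, KO replicate 3, WT replicate 3 or WT replicate 4. The cause was not tested. Signs turned for some values, all but Dnmt3a not called in the main setting. In MDA-MB-231, TET2 was -0.12 after upper-quartile scaling, and EZH2 -0.19 after upper-quartile scaling and -0.20 after quantile normalisation. In CT26, Dnmt3a was -0.13 after centring on neighbours, Dnmt3b 0.0063 after upper-quartile scaling and 0.095 after centring, and Ezh2 0.073, 0.064 and 0.044 after upper-quartile scaling, quantile normalisation and centring. The difference between lines was -0.26 and -0.27 for EZH2 after these scalings and 0.0021 for TET2 after quantile normalisation. Leaving out a library gave -0.0053 to 0.041 for EZH2 and -0.027 to 0.037 for TET2 in MDA-MB-231, -0.065 to 0.034 for Ezh2 in CT26 and -0.012 to 0.087 for the EZH2 difference.

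The replicate numbers are shared by KO and WT, but nothing says that they pair the libraries. The correlations of deviations between libraries of the same number were -0.037 to 0.004 in MDA-MB-231 and 0.027 to 0.078 in CT26, none over 0.1. In CT26 each KO library correlated best with its own number, a hint from the data and not from the design. With the replicate block the CT26 count of genes called was 3, since Dnmt1 and Dnmt3a were lost (adjusted p = 0.113 and 0.112), and the member calls in MDA-MB-231 were 7.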
